A study of Mus musculus with 65 samples.

Results

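The 46 genes described here had a value above 0 in at least 10 of 37 label-retaining hematopoietic stem cells and 0 in all 28 non-label-retaining cells of old mice. They were chosen by that detection pattern from 6826 genes with a count in any cell, so their difference between the 2 groups is the selection itself and carries no test. The rule was met by 53 genes, of which 2 on sex chromosomes were left out and 5 others are not analysed here. The members comprised 44 protein-coding genes, the long non-coding RNA 4833422C13Rik and the transcribed pseudogene 1810014B01Rik.

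Bone marrow of SCL-tTA and H2B-GFP double heterozygous mice older than 20 months was depleted of lineage cells and sorted into single long-term stem cells: Sca-1, Kit and CD150 positive, without CD48 or Flk2, and with little or no CD34. Both groups carried both transgenes, and they differed in whether the sorted cell was GFP positive (label-retaining) or GFP negative (non-label-retaining). All cells were kept overnight without growth factors at 3% oxygen before SMART-Seq v4 amplification of polyadenylated RNA and Nextera XT library preparation. The label-retaining cells numbered 9, 9, 10 and 9 in the 4 biological repeats, and the non-label-retaining cells 8, 4, 6 and 10. The labels do not tie cells to individual mice.

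In this reporter, a transactivator driven by SCL regulatory sequence, active in blood stem cells, switches on a histone H2B fused to GFP, and the labelled histone is diluted at each division once its synthesis stops. A cell that stays GFP positive has therefore divided little. GFP can also be absent because the transgene was never switched on in that cell, which the sort does not tell apart. In libraries from single cells a transcript present in few copies is often missed, so a value of 0 means that no read was assigned and not that the gene was silent.

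The label-retaining libraries were not all independent of each other. Across 2080 pairs of cells the median Pearson correlation of log2(value + 1) over genes was 0.359, and 3 label-retaining cells of repeat 3 correlated at 0.962 to 0.985 with each other, above the 0.922 of the next pair. These 3 cells shared 82.5 to 84.7% of the genes seen in either cell of a pair, against 68.3% at most in any other pair and a median of 24.6%. The correlations were 0.962 to 0.985 also without the members. The 3 cells, called the alike cells here, carried 34 members in all 3, 2 members in 2, 2 members in 1 and 8 members in none, and held 108 of the 571 member values above 0 (18.9%). Whether they stem from 1 cell was not tested, and results are given with each counted, with the 3 counted as 1 (35 cells) and without them (34 cells).

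Similarity also followed the order of the libraries. The index labels carry a running number, and the 57 pairs of one repeat with adjacent numbers had a median correlation of 0.552, against 0.393 in the 448 pairs further apart. All 24 pairs at 0.7 or above lay within a repeat, 17 of them between label-retaining cells, 3 between non-label-retaining cells and 4 between the groups. The same held inside the groups. Adjacent label-retaining cells of a repeat had a median of 0.602 over 32 pairs, with 34.4% at 0.7 or above, against 0.429 and 4.96% over the 121 pairs further apart. The 23 adjacent pairs of non-label-retaining cells had a median of 0.478, with 13.0% at 0.7 or above. The part of position in the member pattern was not tested. Linking label-retaining cells at 0.7 or above gave 7 groups holding 19 cells, and 6 of the 7 were unbroken runs of cell numbers.

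The member count depended on how these cells were counted. With the alike cells counted as 1, 34 of the 46 still reached 10 label-retaining cells, and without them 29 did. With all cells linked at 0.7 or above counted as 1, leaving 25, the members that still reached 10 were 7, namely Kidins220, Plekhj1, Dctn4, Phf23, Zfp771, Agpat3 and Zfp451. These settings were chosen after the data had been seen. Each lowers the number of cells that can be counted, the last one most, so the same minimum of 10 becomes a stricter rule. Leaving out the deepest label-retaining cell of each repeat also left 34 members.

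Few genes met the rule. Of 2890 autosomal genes above 0 in at least 10 label-retaining cells, 51 had no non-label-retaining cell (1.76%), which are the members and the 5 genes not analysed here. All 51 lie among the 1663 genes above 0 in 10 to 19 label-retaining cells, of which they are 3.07%. These shares are set by the rule, and nothing is read from them. Counting the alike cells as 1 gave 37 of 2745 (1.35%), and without them 32 of 2616 (1.22%). In the mirrored direction, 0 of 1311 autosomal genes above 0 in at least 8 non-label-retaining cells had no label-retaining cell (0.0%). Of 6581 autosomal genes with a count, 5768 had the larger share of detecting cells in the label-retaining group (87.6%). Label-retaining cells were deeper in repeats 1 and 2, with median totals of 1654517 and 697583 counts against 65358 and 41004, but not in repeats 3 and 4, with 201268 and 164961 against 271753 and 201757.

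**Figure D1:**
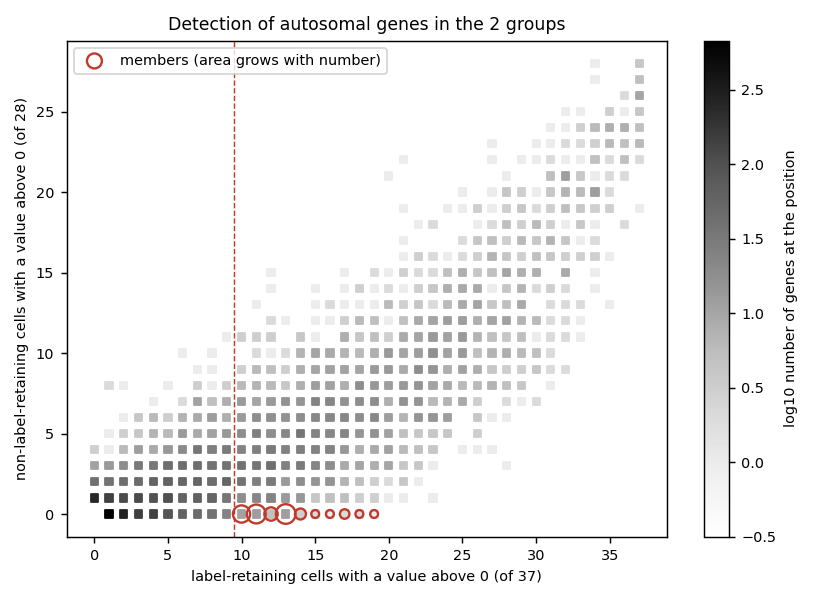
Number of label-retaining cells (horizontal axis, of 37) against number of non-label-retaining cells (vertical axis, of 28) with a value above 0 for autosomal genes, with darker squares for more genes on a log10 scale. Red circles mark the 46 members at 0 on the vertical axis between 10 and 19 label-retaining cells, and the dashed line marks the minimum of the rule.

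The members lay close to the edge of the rule. At 10 label-retaining cells stood 9 members and at 11 stood 11, while 25 further autosomal genes with no non-label-retaining cell stopped at 9 label-retaining cells and 39 at 8. On the other side, 114 genes in at least 10 label-retaining cells were seen in exactly 1 non-label-retaining cell. Among them were Chmp1b, in 23 label-retaining cells, Rmnd5a in 21 and Ssbp2 in 20, more than any member reached. No gene in 20 or more label-retaining cells was at 0 in the other group. The share of genes at 0 in the non-label-retaining group was 5.96% at 10 to 11 label-retaining cells, 4.82% at 12 to 13, 1.37% at 14 to 15 and 1.08% at 16 to 19. These shares were 5.56, 1.84, 0.831 and 0.567% when the alike cells were counted as 1.

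The 0 in all 28 non-label-retaining cells is what chose the members, so no upper limit can be read from it for them. For a gene not chosen that way, the depth sets such a limit. The non-label-retaining cells summed to 4861372 counts, and 3 counts of that total are 0.617 CPM (a gene's counts per 1e6 counts of the cells' total), with counting error alone considered. In repeats 3 and 4 the non-label-retaining cells had median totals as high as the label-retaining cells, but they held fewer genes. Their mean was 1151 and 683 genes per cell, against 1644 and 1858 in the label-retaining cells. At 10000 counts per cell, in the cells that reached it, the means were 342 and 274 against 773 and 896 genes, so the groups were matched there in total counts and not in genes seen. The part of that difference in the member pattern was not tested. By the rule, each member was at 0 in the 16 non-label-retaining cells of those repeats, and it was seen in 3 to 12 of the 19 label-retaining cells. Without the alike cells the range was 0 to 9 of 16.

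By role, the members were 10 genes of signalling and the cytoskeleton, 12 of transcription and chromatin, 5 of RNA handling, 5 of DNA repair and protein turnover, 6 of membrane traffic and organelles, 4 enzymes of lipid, nucleotide or glycan metabolism, and 4 with no role assigned. The roles were assigned after the genes were known and describe them without a test. Once the alike cells were counted as 1, the genes still reaching 10 label-retaining cells were 7, 7, 5, 5, 3, 4 and 3 in that order.

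The regulatory sequence of 34 of the 46 members was matched in RefSeq (GRCm38.p6) as the 250 bases before and 50 bases after an annotated start. The CCAAT box (CCAAT, both strands) was found in 19 of the 34 (55.9%), in 39.1% of 1285 other genes seen in 10 to 19 label-retaining cells, and in 37.9% of all 27025 such windows. The GC box (GGGCGG, both strands) was found in 17 of the 34 members, in 63.1% of those other genes and in 35.9% of all windows. Further motifs were matched, and they went both ways. Members against those other genes gave 29.4 against 18.6% for ETS (CCGGAAG) and 38.2 against 30.0% for ACTTCC. The E-box (CACGTG) gave 11.8 against 10.7% and the TATA box (TATAAA) 8.82 against 6.93%. AP-1 (TGACTCA) gave 0.0 against 4.12% and NRF1 (GCGCATG) 2.94 against 6.85%. No motif share was tested, and nothing particular to the members is read from the CCAAT share. A match describes the letters only. The 250 bases before the start are printed for 4 members, in lower case with each CCAAT or its complement ATTGG in capitals. H2ac8 and H3c4 are shown because these neighbouring histone genes were detected together, and Phf23 and Zfp771 because they still met the rule in 1 draw of 10000 counts per cell. The stretches are chr13:23571221-23571470 on the minus strand, chr13:23575513-23575762 on the plus strand, chr11:69995516-69995765 on the plus strand and chr7:127244276-127244525 on the plus strand, the last lying inside the annotated Zfp771 gene.
H2ac8: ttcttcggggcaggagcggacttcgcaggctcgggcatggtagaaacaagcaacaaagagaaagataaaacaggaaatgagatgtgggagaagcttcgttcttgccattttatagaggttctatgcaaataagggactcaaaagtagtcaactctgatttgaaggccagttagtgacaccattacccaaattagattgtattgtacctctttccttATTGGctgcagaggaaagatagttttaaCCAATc
H3c4: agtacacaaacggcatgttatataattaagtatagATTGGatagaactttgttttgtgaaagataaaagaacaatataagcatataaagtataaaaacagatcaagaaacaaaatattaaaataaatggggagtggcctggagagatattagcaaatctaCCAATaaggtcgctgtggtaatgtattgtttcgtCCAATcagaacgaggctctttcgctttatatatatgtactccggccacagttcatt
Phf23: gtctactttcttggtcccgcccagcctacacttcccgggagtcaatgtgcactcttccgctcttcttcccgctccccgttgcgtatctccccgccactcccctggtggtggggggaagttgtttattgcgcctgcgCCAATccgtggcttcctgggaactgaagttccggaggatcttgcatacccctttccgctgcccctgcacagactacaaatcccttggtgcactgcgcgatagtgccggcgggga
Zfp771: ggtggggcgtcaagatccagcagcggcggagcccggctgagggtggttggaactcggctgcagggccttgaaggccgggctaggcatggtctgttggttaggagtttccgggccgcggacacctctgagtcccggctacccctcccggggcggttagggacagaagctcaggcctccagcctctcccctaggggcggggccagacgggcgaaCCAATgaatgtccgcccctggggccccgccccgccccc

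The histone pair, without a GC box in these stretches, held 2 and 3 CCAAT matches, while Phf23 and Zfp771 held 1 each. H2ac8 encodes a histone H2A and H3c4 a histone H3. H2ac8 was seen in 13 cells with values from 0.50 through a median of 28.0 to 1170 estimated counts, and H3c4 in 12 cells with values from 0.50 through 2.25 to 19.2. H3c4 never exceeded 20 counts in a cell. They shared 11 cells, and with the alike cells counted as 1 they shared 10 of 11 each. Histone genes have near-identical copies and only 41.7% of the H3c4 values were whole numbers, so its counts are uncertain.

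Among the signalling and cytoskeletal genes, Kidins220 encodes a membrane scaffold of neurotrophin and other receptors and was seen in most label-retaining cells of all members, 19 of 37. It lies at chr12:24974903-25063152. The cells were 6, 1, 8 and 4 in repeats 1 to 4, and 17 in all with the alike cells counted as 1. Its values ran from 1 through a median of 12.0 to 5965 counts. One cell of repeat 3, not an alike cell, held that maximum and 70.2% of all its counts. The level was 685 ± 1336 CPM (SD, n = 4 repeats) with that cell and 209 ± 383 without it, so repeats differed by more than their mean.

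Plekhj1, a pleckstrin homology domain protein at chr10:80796099-80798626, was seen in 18 cells, 6, 6, 4 and 2 by repeat, with values from 1 through 15.5 to 2909 counts. Its level by repeat was 105, 90.8, 34.9 and 18.5 CPM, and repeat 3 fell to 2.14 CPM without the alike cells. Only 44.4% of its values were whole, as where reads are shared with another gene. Dctn4, a subunit of dynactin, the partner complex of the dynein motor, was seen in 17 cells, 7, 1, 5 and 4 by repeat, with values from 1 through 7.00 to 4765 counts. Repeat 2 gave 0.0848 CPM of Dctn4 from a single cell with 1 count, and repeats 1 and 3 gave 151 and 340 CPM. Repeat 3 fell to 23.6 CPM without the alike cells. Kidins220 and Dctn4 were the pair of members seen together most often, in 14 cells, and in 12 with the alike cells counted as 1.

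Baiap2l1, an I-BAR protein that bends membrane at actin-rich protrusions, was seen in 14 cells, 5, 5, 3 and 1 by repeat, with a median of 6.5 and a maximum of 1632 counts. It overlaps Bri3, which was seen in 19 label-retaining cells and 1 non-label-retaining cell, 10 of them shared. The overlap is the short stretch chr5:144264525-144264573. The library kit marks no strand, so reads of that stretch cannot be assigned. Lrp6, a co-receptor of Wnt signals, was seen in 10 cells, 3, 0, 5 and 2 by repeat, with a median of 35.0 and a maximum of 1098 counts. It fell to 8 cells when the alike cells were counted as 1. Shkbp1, a binding partner of the endocytic adaptor SH3KBP1, was seen in 7 cells of repeat 1 and 3 of repeat 3 and in none of the other repeats. All 3 of those repeat 3 cells were alike cells, and a single cell with 4207 counts held 97.9% of its sum. Net1, an exchange factor for the GTPase RhoA, was seen in 13 cells, and Ppm1b, a serine and threonine phosphatase, in 12. Acap1, an Arf6 GTPase-activating protein, was seen in 11, with 54.5% of its values whole. Marcks, an actin-binding substrate of protein kinase C, was seen in 10.

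**Figure D2:**
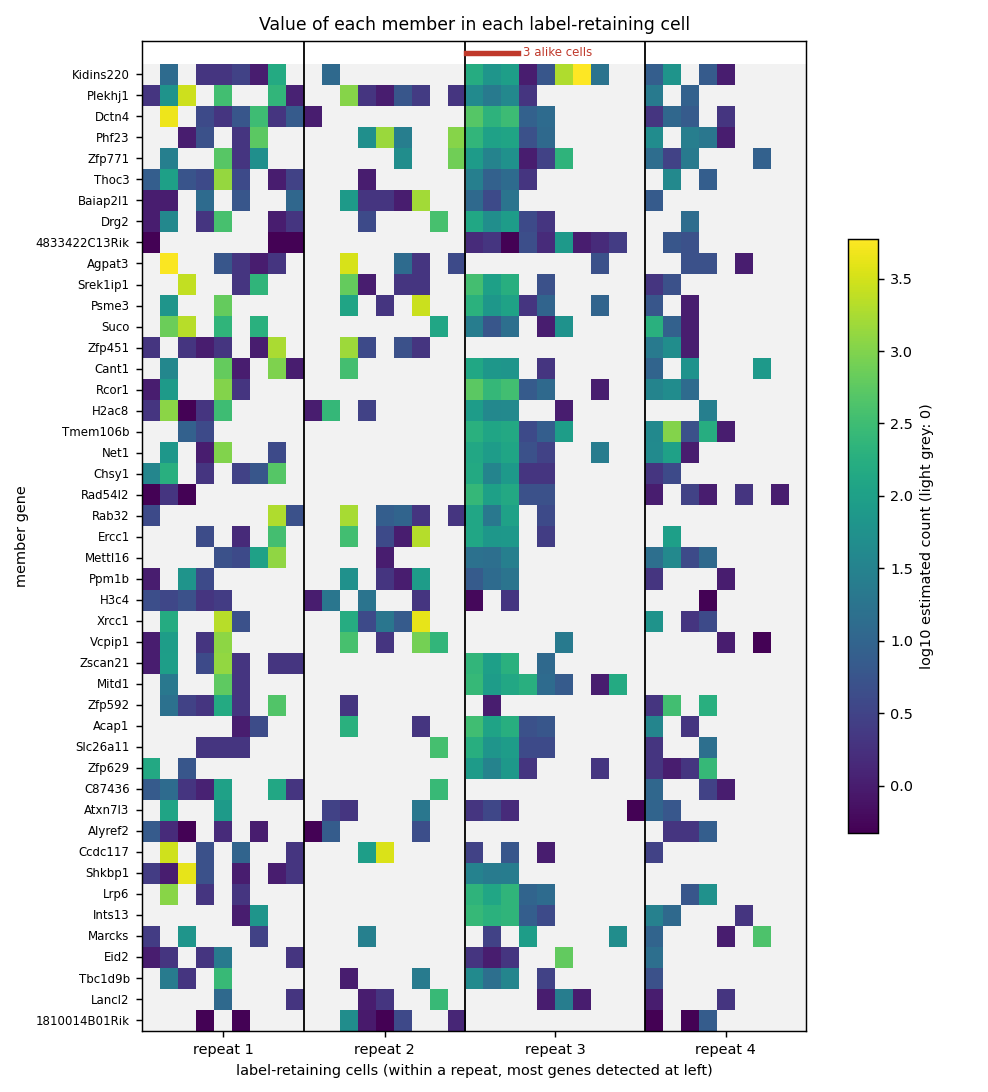
Value of each member (rows, ordered by number of detecting cells) in each of the 37 label-retaining cells (columns, by repeat and then by genes detected) on a log10 scale of estimated counts, with light grey for 0. The red bar marks the 3 alike cells of repeat 3, whose columns show nearly the same members at similar values, while columns elsewhere differ from cell to cell.

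Among the genes of transcription and chromatin, Phf23, whose PHD finger binds trimethylated lysine 4 of histone H3, was spread most evenly. It lies at chr11:69995766-70000011 and was seen in 4, 4, 5 and 4 cells of repeats 1 to 4, 17 in all, with values from 1 through a median of 27.0 to 1446 counts. Its level by repeat was 16.9, 221, 156 and 56.6 CPM, and repeat 3 fell to 18.2 CPM without the alike cells. It was seen in 15 when the alike cells were counted as 1. Zfp771, a zinc finger protein at chr7:127242996-127254872, was seen in 4, 2, 6 and 4 cells, 16 in all, with values from 1 through 30.0 to 784 counts. Its level by repeat was 17.9, 70.5, 129 and 28.6 CPM. Both genes were seen in every repeat.

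Rcor1, the CoREST scaffold that joins histone deacetylases and the demethylase LSD1, was seen in 4, 0, 6 and 3 cells, with a median of 33.0 and a maximum of 1052 counts. Its repeat 3 level of 379 CPM fell to 21.4 CPM without the alike cells, so these cells held most of its counts there. Zscan21, a SCAN and zinc finger protein, was seen in 7 cells of repeat 1 and 4 of repeat 3 and in none of the other repeats, with a median of 12.0 and a maximum of 1303 counts. The other zinc finger members were Zfp451, a SUMO ligase seen in 13 cells and in none of repeat 3, and Zfp592 and Zfp629, each in 11. Atxn7l3, a subunit of the deubiquitinase module of the SAGA coactivator, was seen in 11 cells, Eid2, an inhibitor of the acetyltransferase p300, in 10, and Ints13, a subunit of the Integrator complex that cleaves nascent RNA, in 10. Atxn7l3 overlaps Tmub2, which was seen in 15 label-retaining and 5 non-label-retaining cells, 8 of them shared. Only 45.5% of the Atxn7l3 values were whole. Counting the alike cells as 1 left Zfp451 at 13 cells and Zfp592 at 11. It took Zfp629, Atxn7l3, Eid2 and Ints13 below the minimum of 10.

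In the RNA handling group, Thoc3, a subunit of the THO complex that couples transcription to mRNA export, was seen in 15 cells, 8, 1, 4 and 2 by repeat, with a median of 8.00 and a maximum of 1355 counts. The 8 cells of repeat 1 were 8 of its 9 label-retaining cells, the densest detection of any member in that repeat. Drg2, a GTP-binding protein of the conserved DRG family, was seen in 14 cells, 6, 2, 5 and 1 by repeat, with a median of 9.00 and a maximum of 378 counts. Srek1ip1, which binds the splicing regulator SREK1, was seen in 13 cells, 3, 4, 4 and 2 by repeat, with a median of 5.00 and a maximum of 2498 counts. Mettl16, an RNA methyltransferase, was seen in 12 cells. Alyref2, a copy of the export adaptor Alyref, was seen in 11 cells at no more than 8.00 counts, and 45.5% of its values were whole. Alyref itself was seen in 16 label-retaining and 5 non-label-retaining cells.

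In the DNA repair and protein turnover group, Ercc1, a partner of the nuclease XPF in excision repair, was seen in 3, 4, 4 and 1 cells by repeat, with a median of 71.1 and a maximum of 2082 counts. It overlaps Cd3eap, which was seen in 24 label-retaining and 6 non-label-retaining cells, 11 of them shared with Ercc1, and only 25.0% of the Ercc1 values were whole. Its reads therefore cannot be assigned to Ercc1 alone. Psme3, the PA28 gamma activator of the proteasome, was seen in 2, 3, 6 and 2 cells, with a median of 65.0 and a maximum of 2771 counts. Rad54l2, a helicase-like protein, was seen in 13 cells, and Vcpip1, a deubiquitinase that acts with VCP, in 11. Xrcc1, the scaffold of single-strand break repair, was seen in 11 and in none of repeat 3, with 54.5% of its values whole.

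In the membrane traffic group, Mitd1, which acts at the membrane during the final cut of cell division, had the highest median value of all members, 87.0 counts. It was seen in 3 cells of repeat 1 and 8 of repeat 3 and in none of repeats 2 and 4. Its repeat 3 cells held from 1 to 260 counts. With the alike cells counted as 1 it was seen in 9 cells, under the minimum of the rule. Tmem106b, a lysosomal membrane protein, was seen in 2, 0, 6 and 5 cells, with a median of 42.0 and a maximum of 1034 counts, and its highest level was in repeat 4, at 746 CPM. Suco, a membrane protein of the endoplasmic reticulum, was seen in 4, 1, 5 and 3 cells, with a median of 59.0 and a maximum of 2158 counts. Rab32, a GTPase of lysosome-related organelles, was seen in 12 cells and in none of repeat 4, Slc26a11, an anion transporter, in 11, and Tbc1d9b, a protein with a Rab GTPase-activating domain, in 10.

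Among the enzymes, Agpat3, which makes phosphatidic acid, was seen in 5, 4, 1 and 3 cells with a median of 5.00 and a maximum of 5653 counts. None of its cells was an alike cell, so its 13 cells stayed 13. Cant1, a nucleotidase of the Golgi, was seen in 5, 1, 4 and 3 cells with a median of 66.0 and a maximum of 958 counts. Its level was among the most even over repeats with all cells counted, at 48.9, 29.6, 86.9 and 85.2 CPM (62.6 ± 28.2, SD, n = 4). Without the alike cells repeat 3 fell to 2.14 CPM and the level was 41.5 ± 34.9 CPM, so that evenness rested on them. Chsy1, a chondroitin synthase, was seen in 13 cells and Lancl2, a LanC-like protein, in 10.

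Of the 4 members without an assigned role, 4833422C13Rik was seen in 3, 0, 9 and 2 cells, 9 of the 10 label-retaining cells of repeat 3, at a median of 1.5 counts. It overlaps Ssbp2, which was seen in 20 label-retaining cells and 1 non-label-retaining cell, 13 of them among its 14, and 28.6% of its values were whole, so its reads are uncertain. C87436 was seen in 7, 1, 0 and 3 cells with a median of 7.00 and a maximum of 278 counts, and none of its cells was an alike cell. Ccdc117 was seen in 10 cells, and 1810014B01Rik in 10, with none of its values whole.

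The spread over repeats was uneven in the members and in other genes. Of the 46 members, 27 were seen in all 4 repeats, 16 in 3 and 3 in 2, namely Mitd1, Shkbp1 and Zscan21. Among 1612 other autosomal genes in 10 to 19 label-retaining cells, 1087 were seen in all 4 repeats (67.4%), a larger share than in the members. These other genes had a median of 14 detecting label-retaining cells, against 12 in the members. The repeat with most detecting cells held a median of 41.7% of them in these genes and 42.5% in the members. The 27 stayed 27 with the alike cells counted as 1 and became 22 without them. The share of other genes seen in all 4 repeats was then 72.9 and 67.3%. These were 1666 and 1659 genes, picked anew as seen in 10 to 19 label-retaining cells under each setting. The 46 members were kept, also those that no longer reached 10 cells, so the sets were not picked alike. Repeats 1 to 4 showed 46, 33, 41 and 42 of the members. All members were seen in repeat 1, which had the deepest label-retaining cells. For 11 members at least 50% of the detecting cells came from a single repeat, and for 20 without the alike cells. These counts were not made for the other genes, so they are not read as particular to the members.

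**Figure D3:**
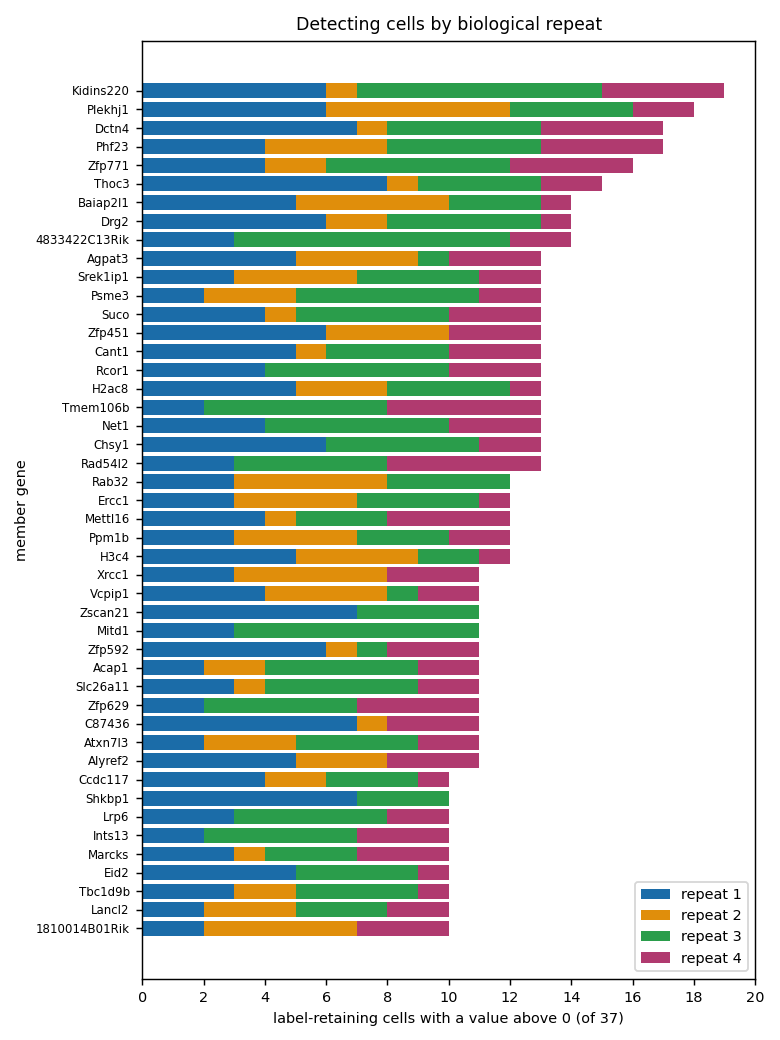
Number of label-retaining cells with a value above 0 for each member (bar length, of 37), split by biological repeat in colours. Kidins220 reaches 19 cells and the lowest members 10, and bars such as Mitd1, Shkbp1 and Zscan21 hold the colours of repeats 1 and 3 only.

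Per cell, the members were concentrated in the cells with most genes. A label-retaining cell showed a median of 14 members, from 0 to 36, and 36 of the 37 cells showed at least 1. The means by repeat were 21.2, 10.3, 18.0 and 11.9, which gives 15.4 ± 5.12 (SD, n = 4). Counting the alike cells as 1 lowered repeat 3 to 13.8 and the mean to 14.3 ± 4.82. The 12 cells with 20 or more members held 58.8% of all member values above 0, and the 3 alike cells had 36 each, the highest number. Over 37 cells Spearman's rho of members with genes detected was 0.85, and 0.284 with total counts, as a description of cells that share repeats and libraries. With the alike cells counted as 1 these were 0.854 and 0.262. Cells with more genes had more members, and deeper cells did so less clearly.

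**Figure D4:**
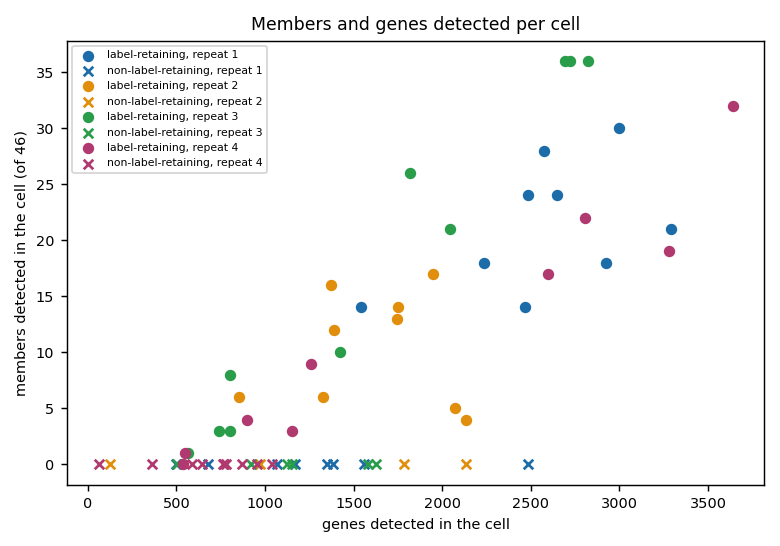
Genes detected (horizontal axis) and members detected (vertical axis, of 46) in each cell, with filled circles for label-retaining cells, crosses for non-label-retaining cells and a colour for each repeat. Circles rise to the right up to 36 members in the 3 alike cells of repeat 3, and crosses lie at 0 by the rule.

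Cells of both groups with similar numbers of genes are set side by side as a description only, since the rule fixed the 0 of the non-label-retaining cells. Between 1000 and 2000 genes there were 11 label-retaining cells, with 3 to 26 members and a median of 13, and 11 non-label-retaining cells, with 0 by the rule. Below 1000 genes the 8 label-retaining cells had 0 to 8 members. At 2000 to 3000 genes the 15 label-retaining cells had a median of 22, but only 2 non-label-retaining cells were that rich. Median totals of label-retaining and non-label-retaining cells were 77649 and 165707 counts below 1000 genes. They were 268737 and 93523 at 1000 to 2000 genes, and 697583 and 226530 at 2000 to 3000, so these cells were not matched in depth.

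Thinning each cell to 10000 counts and taking the expected detection lowered the members' mean share of label-retaining cells from 33.5% to 14.3%. It was 12.6% with the alike cells counted as 1 and 11.6% without them. All 37 label-retaining cells and 24 of the 28 non-label-retaining cells reached that depth. The members' expected shares ran from 2.41% to 32.5% with a median of 14.2%, and 26 members kept at least 5 expected cells while 2, H3c4 and Alyref2, kept under 1. Over the 1612 other genes in 10 to 19 label-retaining cells the median was 15.8%, so the members' median lay near that of genes also seen in the other group. With the alike cells counted as 1 the medians were 12.7% and 15.3%. Members per cell fell to 6.5 ± 2.37 (SD, n = 4).

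Phf23 had the highest expected share after thinning, 32.5%, with 20.7, 39.9, 36.8 and 32.0% in repeats 1 to 4. It was 29.4% with the alike cells counted as 1, still the highest. Dctn4 and Zfp771 followed at 24.5% each, Kidins220 at 23.1% and Tmem106b at 23.0%. Of these, Zfp771 ranged over repeats from 17.3 to 30.0%, and Kidins220 from 0.34 to 53.6%. Rcor1 and Cant1 kept 21.5% each, Plekhj1 20.4%, Lrp6 19.4% and Mitd1 18.9%. Mitd1's share came from repeats 1 and 3, at 15.0 and 56.4%. Without the alike cells the shares of Phf23, Dctn4, Zfp771, Kidins220 and Tmem106b were 27.7, 18.0, 21.9, 18.4 and 17.2%. Those of Rcor1, Cant1, Plekhj1, Lrp6 and Mitd1 were then 14.7, 17.2, 18.7, 13.0 and 13.0%, so the order below Phf23 depended on these cells. H3c4 fell furthest in relation to its cells, from 12 cells to an expected share of 2.41%. In 1 seeded draw to 10000 counts, Phf23 and Zfp771 still met the rule, and Phf23 alone did with the alike cells counted as 1.

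**Figure D5:**
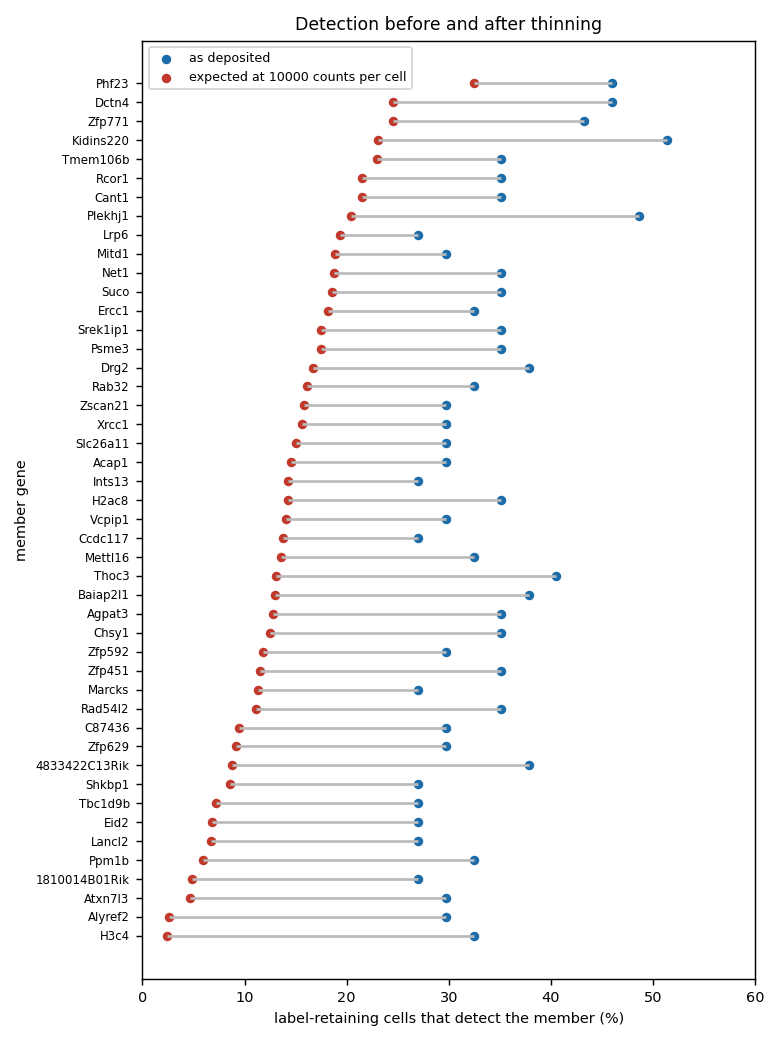
Share of label-retaining cells that detect each member (horizontal axis, percent) as deposited (blue) and the share expected at 10000 counts per cell (red), joined by a grey line. Phf23 stands at the top with 32.5% after thinning and H3c4 at the bottom with 2.41%, while the blue points lie between 27.0 and 51.4%.

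Values behind the detections were often low. Of 571 values above 0, 272 were 10 or more and 131 were 100 or more, while 19 were under 1. The members' median value had a median of 8.50 counts, against 10.6 in the 1612 other genes, and 6.38 against 9.00 with the alike cells counted as 1. For 28 members a single cell held over 50% of all counts. That number was not obtained for the other genes, so it is not read as particular to the members. With a minimum value of 10 counts for detection, 4 members still met the rule, Kidins220, Phf23, Zfp771 and Cant1.

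The fixed lists placed 4 members beside their pathway partners. The counts here leave the members out. Of 14 dynein and dynactin genes with a count, 13 had the larger share of detecting cells in the label-retaining group and Bicd2 in the other, and Dctn2, another dynactin subunit, was seen in 20 label-retaining and 5 non-label-retaining cells. Of 13 PHD finger genes 12 had the larger label-retaining share, as did 8 of 10 genes around Kidins220 and 9 of 12 of the nuclear pore and mRNA export. All are set against 87.6% of all autosomal genes with a count, and nothing particular to these lists is read from them. Within the THO complex, Thoc1 was seen in 18 and 5 cells and Thoc7 in 21 and 8 cells of the 2 groups, while Thoc3 was seen in 15 and 0.

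The labelled cell type was checked on its markers. Of 20 listed stem cell genes 10 were in the table and 7 had a count, 6 of them with the larger share of detecting cells in the label-retaining group. The stem cell regulators Hlf, Gata2 and Meis1 were seen in 31, 24 and 24 label-retaining cells and in 12, 10 and 12 of the other group, while Slamf1, which encodes the CD150 used in the sort, was at 0 in all cells, as were Cd48 and Flt3. Cd9 was seen in 29 and 20 cells of the label-retaining and the other group, Hoxa9 in 5 and 0, Hoxb5 in 2 and 0, and Fgd5 in 1 of each. Markers listed for other cell types were mixed. Xcr1 of dendritic cells was seen in 23 label-retaining and 10 other cells, Itgb3 of megakaryocytes in 30 and 9. Pecam1 of endothelium was seen in 20 and 6, Il1rl1 of mast cells in 19 and 12, and Col1a2 of stroma in 18 and 11. Others of these lists were at 0 in all cells, among them Itgax, Cd209a, Gp9, Gp1ba, Fcer1a, Cxcl12, Col1a1 and Col3a1. The erythroid Hba-a1 was seen in 36 and 24, and Hba-a2, with the larger share in the other group, in 12 and 14. The macrophage genes Cd68 and Lyz2 were seen in 7 and 3 label-retaining cells and in 0 of the other group. The neutrophil genes Elane, Mpo and Ltf were at 0 in all cells, Camp and Ngp were each seen in 1 and 0, and Prtn3 in 1 and 1. No member belongs to a marker list of another blood or stromal cell type. One label-retaining cell of repeat 3 took 92.5% of its counts from erythroid genes and showed 8 members, and the other cells took at most 7.93%. Leaving it out kept the member count at 46. The part of other cell types in the member pattern was not tested beyond that.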

How the data were processed

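Single-cell RNA-seq of 37 label-retaining and 28 non-label-retaining cells was analysed, grouped by GFP label, with the 4 biological repeats of the series design as the unit. The deposited table holds estimated counts per gene and cell. The build mm10 and DESeq are named per the submitters' processing notes, while the sources used here do not give the aligner, counter or annotation. The authors' file is called normalized, but the deposited estimated counts differ widely in total between cells and were treated as unscaled, and amplified reads carry no molecular identifiers, so intervals cover counting error only. The table covers part of the genome, so totals and CPM refer to that part.

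Of 18036 gene identifiers, 16216 matched RefSeq GRCm38.p6 and none of the 1820 others met the rule. A value above 0 counted as detected. For thinning, values were rounded and the expected detection at 10000 counts was computed from the hypergeometric distribution, and 1 draw with a fixed seed served as an alternative. CPM was the summed count over the summed total of a repeat. No test was made, because the members were chosen on the same contrast. Members, lists and roles were chosen with earlier results of these data known. Every member is named, and values in full are given for the 12 seen in most cells, the 10 highest after thinning, the 5 most uneven over repeats and the 5 with the highest median value. Detection thresholds, cell minimums, depths and left-out repeats or cells were varied. Scripts were tested on simulated data. Python 3.11.15, pandas 2.3.3, numpy 2.4.6 and scipy 1.17.1 were used.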

Additional observations from a re-analysis of the deposited data

Results flagged for a closer look

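Several members had 1 repeat that lay far from the other repeats, by Dixon's criterion for an outlying value. Chance meets it in about 1 in 20 groups of normally distributed values. Shares of few cells, and CPM that a single cell can dominate, are not such values. The 22 members examined for CPM were also picked in part as uneven over repeats. That rate thus does not apply here, and nothing is read from how many stood apart. Of 46 members' shares of cells by repeat, 3 stood apart, and of 22 members' CPM by repeat, 4 did. Kidins220 reached 2688 CPM in repeat 3 against 1.02 to 46.5 CPM in the other repeats, and 8474 CPM there without the alike cells. One cell of repeat 3, not an alike cell, held 70.2% of all Kidins220 counts. Baiap2l1 reached 146 CPM in repeat 2 against 0.94 to 11.1 CPM. A single cell of repeat 2 held 91.2% of all its counts. Without that cell the Baiap2l1 level over the repeats was 6.09 ± 4.45 CPM (SD, n = 4). Rcor1 reached 379 CPM in repeat 3 against 0 to 54.8 CPM, and had 21.4 CPM there without the alike cells. Mitd1 reached 272 CPM in repeat 3 against 0 to 17.9 CPM, and had 378 CPM there without the alike cells. The share of detecting cells stood apart in repeat 3 for Acap1, at 50% against 22.2% in each other repeat, and in repeat 2 for Marcks, at 11.1% against 30.0 to 33.3%. Without the alike cells Acap1 was seen in 2 of the 7 label-retaining cells of repeat 3. Phf23 met the criterion with 50% in repeat 3 (5 of 10 cells) against 44.4% in each other repeat (4 of 9), a gap of about 1 cell in a gene that was spread evenly. The members per cell within a repeat gave no such cell, among 5 groups examined.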

How the results depend on the processing

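No paired analysis was possible because no result comes from a test: the members were chosen on the contrast itself, so no fit was made, although each repeat holds both groups. The member count of 46 was 53 and 68 where a value of at least 1 or 2 counted as detected, 97 with at least 5 and 90 with at least 10, 110, 26 and 6 with at least 8, 12 and 15 label-retaining cells, 160 with 1 non-label-retaining cell allowed, 0 in the mirrored direction and 17 in 1 seeded draw of 10000 counts. Leaving out repeat 1, 2, 3 or 4, with the minimum lowered in proportion, gave 142, 100, 89 and 79 genes. Of the 46 members, 31, 41, 27 and 42 were among them. Leaving out the deepest label-retaining cell of each repeat gave 34. Without the 3 alike cells the member count was 29, and 7 with linked label-retaining cells counted as 1. With at least 2 counts, 30 of the members were among the genes chosen. Only 10 and 4 of the members were among the genes chosen with at least 5 and 10 counts, so these are largely different genes. The 27 members in all 4 repeats were 15 and 10 with at least 5 and 10 counts, and 10 in the draw. The mean share of 33.5% was 19.6 and 16.0% with at least 5 and 10 counts. The thinned share of 14.3% was 25.0% at 50000 counts, in the 33 cells that reached it. The members per cell of 15.4 were 6.5 after thinning. The 1.76% of genes without a non-label-retaining cell was 2.93, 5.77 and 6.90% with at least 2, 5 and 10 counts, 2.94 to 5.96% without 1 repeat, 1.22% without the alike cells and 0.441% with linked cells counted as 1. Leaving out 1 repeat gave mean shares of 29.5 to 37.1%, thinned shares of 12.1 to 16.2% and 13.4 to 17.0 members per cell. Of 76 alternatives, 46 moved their value by less than the spread between repeats, the counting interval or, for counts, 1.5 times. The cause of the larger shifts was not tested. Depth limits the 0 where the non-label-retaining cells summed to 1032025 counts (repeat 1) and 195026 (repeat 2).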

Other observations

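Genes chosen by the same rule without 1 repeat were examined in the repeat left out, as a description with no test. With repeat 1 left out, 142 genes were chosen and 104 of them were seen in a non-label-retaining cell of repeat 1. With repeats 2, 3 and 4 left out, 27 of 100, 37 of 89 and 21 of 79 were seen. In repeat 4 the genes chosen on the other repeats had a ratio of 4.98, from detected shares of 20.8% (label-retaining) and 4.18% (other group). Other genes had a ratio of 3.19 there, from shares of 35.7 and 11.2%. They lay in the same range of label-retaining cells in the repeats used to choose, but were seen more often. In repeats 1, 2 and 3 the ratios were 2.17, 1.40 and 1.71, against 2.08, 1.32 and 1.53. The label-retaining shares behind them were 47.1, 14.3 and 20.2%, against 59.7, 35.6 and 35.0%. The shares are unlike, so nothing is read from these ratios. With the alike cells counted as 1 they were 1.98, 1.32, 1.34 and 4.66 in repeats 1 to 4, against 2.06, 1.31, 1.29 and 3.15, and without the alike cells 2.00, 1.22, 0.952 and 4.24, against 2.03, 1.31, 1.03 and 3.18. Without those cells the chosen genes had the smaller ratio in repeats 1, 2 and 3 and the larger in repeat 4, again at unlike shares.

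The deepest library, a label-retaining cell of repeat 1 with 20516069 counts, showed 21 members at a median of 2.00 counts, and 0.109 members were expected in it at 10000 counts. It correlated at 0.922 with a non-label-retaining cell of the same repeat.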
